A study of Mus musculus with 2 samples.

Results

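S100 proteins are small calcium-binding proteins with a pair of EF-hand motifs, and 10 S100 genes were followed here across the cell classes of dystrophic mouse muscle: S100a1, S100a4, S100a6, S100a8, S100a9, S100a10, S100a11, S100a13, S100a16 and S100b. They were picked by symbol, as 10 of the 24984 gene symbols in each library, and all 10 have a row in both. The files hold 7 further S100 symbols, which are given by their counts only. Single cell RNA-seq (droplets, 10x Chromium) was run on mononuclear cells of hind limb muscle, sorted for viability, with 1 library of a Ctrl and 1 of a dKO group, each pooled from several mice. Ctrl mice carried Pax7 CreERT2/R26YFP, intact Yy1 (+/+) and the mdx mutation, and dKO mice carried Pax7 CreERT2/R26YFP, floxed Yy1 (f/f) and mdx. All groups therefore lacked dystrophin and carried the tamoxifen-inducible Cre and the YFP reporter, and by the study's methods all had received tamoxifen on consecutive days as young mice, about a month before harvest. The Cre is driven by Pax7, so that Yy1, which encodes a zinc finger transcription factor, is lost in muscle stem cells (MuSCs) and their progeny and stays in the other cells.

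With 1 library per group there was no replicate, so differences were not set against a spread between replicates and no p-value was computed. Levels are unique molecular identifiers (UMIs, 1 per captured RNA molecule) summed over the cells of a class and given as CPM, the class's count of a gene divided by its total UMIs and scaled to 1000000. Ranges in parentheses are exact 95% intervals that cover counting error only, Poisson for a level, conditional binomial for a ratio and binomial for a share. Ratios are dKO over Ctrl on the log2 scale. A gene is called past 2-fold where its CPM differed by 2-fold or more and it had at least 50 UMIs over both libraries in the class, and this rule was used alike for the S100 genes and for all genes.

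S100 proteins act inside the cell on cytoskeletal, annexin and calcium-handling partners, and several are released and bind receptors such as Ager (RAGE) and Tlr4. S100a8 and S100a9 together form calprotectin, an abundant cytosolic protein of neutrophils and young monocytes that limits microbial growth by binding metal ions. S100a4 is known as fibroblast-specific protein 1, although leukocytes also make it, and S100a10 forms a complex with annexin A2 at the cell membrane. S100a1 is known from striated muscle and S100b from glia and Schwann cells.

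The 2 libraries held 4527 and 3483 cells and 45556596 and 33815155 UMIs in Ctrl and dKO. Of these, 4010 and 3079 cells were kept, with medians of 7881.5 and 7858 UMIs per cell, and 6 kept barcodes occurred in both libraries. The S100 genes were left out of the clustering, and classes were named from marker lists that hold none of them. Each class is written as "like" because no marker was measured by another method. The 12 named classes with at least 20 cells in each library are compared: monocyte/macrophage (MO/MP)-like (1420 and 1128 cells), fibro/adipogenic progenitor (FAP)-like (1160 and 1173), endothelial cell (EC)-like (467 and 180), T cell-like (115 and 137), B cell-like (141 and 87), dendritic cell-like (109 and 102), MuSC-like (124 and 33), cycling MO/MP-like (108 and 44), smooth muscle/pericyte-like (114 and 35), tenocyte-like (76 and 58), neutrophil-like (97 and 36) and cycling FAP-like (36 and 30). Lymphatic EC-like, Schwann cell-like and unnamed cells numbered 10 to 17 per library. Yy1, the deleted gene, had 411 UMIs in Ctrl MuSC-like cells (163 CPM) and 7 in dKO MuSC-like cells (8.68 CPM), and its log2 ratio in the other 11 classes ran from -0.57 to 0.37.

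The genes lie close together. In GENCODE M21 (GRCm38, the sequence that the files' mm10 build is based on), 9 of the 10 lie on chromosome 3 and S100b lies on chromosome 10 (chr10:76253853-76261159). Along chromosome 3, S100a1, S100a13, S100a16, S100a4, S100a6, S100a8 and S100a9 fill 184688 bases (chr3:90511034-90695721), and S100a11 and S100a10 form a second block (chr3:93520488-93564643) after a gap of 2824766 bases. S100a1 and S100a13 are transcribed away from each other with 42 bases between them. S100a8 and S100a9 are 22596 bases apart and also lie on opposite strands. RefSeq promoter windows (GRCm38.p6, 250 bases before to 50 after a start) were found for 9 of the 10 genes.

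The promoters of S100a4, S100a8 and S100a9 are printed here because they are the only S100 genes of the 9 whose 300-base window holds TATAAA, which 13.6% of 32841 RefSeq windows hold on either strand. S100a8 and S100a9 also had the largest ratios between the libraries over all kept cells, whereas S100a4 passed 2-fold in no class. Each stretch runs 5′ to 3′ from 150 bases before to 30 after the RefSeq start, and capitals mark TATAAA and the C/EBP-type letters TTNNGNAA on either strand, which 40.7% of all windows hold.
S100a4, chr3:90603620-90603799, plus strand: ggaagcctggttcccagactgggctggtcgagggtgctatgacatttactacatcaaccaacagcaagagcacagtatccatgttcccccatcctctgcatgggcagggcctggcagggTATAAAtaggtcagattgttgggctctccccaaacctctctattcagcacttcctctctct
S100a8, chr3:90668921-90669100, plus strand: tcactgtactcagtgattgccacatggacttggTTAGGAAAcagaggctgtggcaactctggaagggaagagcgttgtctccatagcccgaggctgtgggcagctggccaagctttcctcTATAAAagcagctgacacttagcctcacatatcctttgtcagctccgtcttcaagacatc
S100a9, chr3:90695692-90695871, minus strand: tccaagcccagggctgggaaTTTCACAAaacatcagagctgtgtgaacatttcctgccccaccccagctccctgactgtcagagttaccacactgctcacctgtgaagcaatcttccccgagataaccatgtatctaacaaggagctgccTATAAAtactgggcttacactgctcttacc

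TATAAA began at -31 from the RefSeq start of S100a4, at -30 from that of S100a8 and at position 0 of S100a9. The letters CCATNTT, a YY1-type motif that 16.1% of all windows hold on either strand, were found in the window of S100a4 and in none of the windows of the other 8 genes. The windows of S100a1 and S100a13 share 204 bases. A match of letters is a description of the sequence and not a measured binding site.

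Each gene had its own set of classes. The heatmap of levels sets all 10 genes against the 12 classes in both libraries.

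**Figure D1:**
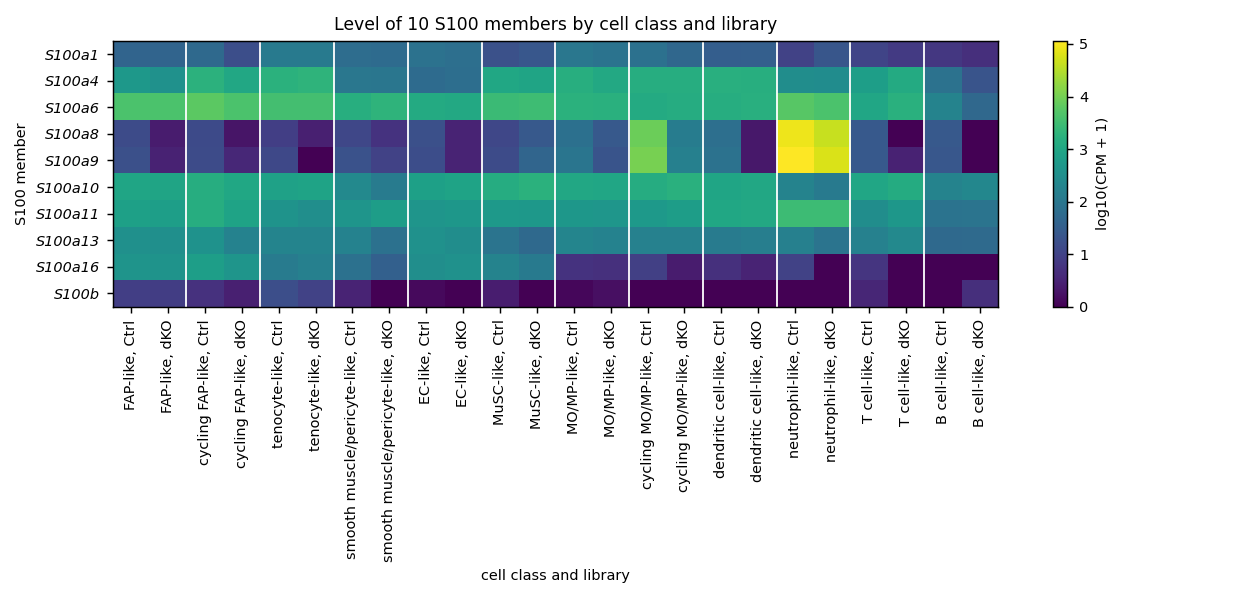
Level of each S100 gene (rows) in each cell class (columns) of the Ctrl and dKO libraries, as log10 of CPM plus 1 in colour. S100a8 and S100a9 stand out in neutrophil-like cells (84557 and 115325 CPM in Ctrl), S100a16 is at most 8.81 CPM in the leukocyte classes, and S100a6 is lowest in B cell-like cells (179 and 50.3 CPM).

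S100a6, or calcyclin, had UMIs in all 12 classes. It was highest in cycling FAP-like cells in Ctrl (6051 CPM, 5912 to 6193), and in dKO its top 3 classes, FAP-like (4344 CPM, 4312 to 4377), neutrophil-like (4320 CPM, 3907 to 4764) and cycling FAP-like cells (4315 CPM, 4193 to 4440), had overlapping intervals. It was lowest in B cell-like cells in both libraries (179 and 50.3 CPM), where most Ctrl UMIs lay in 1 cell and the part of free RNA was not tested. In FAP-like cells 4289 CPM in Ctrl compared with 4344 CPM in dKO, a log2 ratio of 0.02. The 5 FAP-like clusters spanned 3221 to 4972 CPM, so that this gene varied little among them. Among the 5 MO/MP-like clusters it varied more, from 990 CPM in Ctrl cells of the Fcna-led cluster to 2773 CPM in those of the Slpi-led cluster, which is also led by the monocyte genes Ly6c2 and Chil3.

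S100a11, whose protein binds annexin A1, had its highest level in neutrophil-like cells, at 2963 CPM (2783 to 3152) in Ctrl, compared with 3013 CPM (2670 to 3388) in dKO. The next classes were cycling FAP-like cells in Ctrl (1403 CPM) and dendritic cell-like cells in dKO (1143 CPM), and B cell-like cells were lowest in both (83.9 and 88.95 CPM). S100a10 went the other way in neutrophil-like cells, where it was low, at 182 CPM (140 to 233) in Ctrl, compared with 119 CPM (59.3 to 213) in dKO. MuSC-like cells were near its top in both libraries, with 1362 CPM (1317 to 1408) in Ctrl, compared with 1708 CPM (1619 to 1801) in dKO. Its partner Anxa2 stood in MuSC-like cells at 1174 and 1498 CPM, and its log2 ratio there (0.35, 0.25 to 0.45) was near that of S100a10 (0.33, 0.24 to 0.42). Both S100a10 and Anxa2 were lower than this in EC-like cells (753 and 868 CPM for S100a10, 479 and 534 CPM for Anxa2).

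S100a4 was lowest in EC-like, B cell-like and smooth muscle/pericyte-like cells in both libraries, with neutrophil-like cells next. In Ctrl it was highest in cycling FAP-like cells (1798 CPM, 1722 to 1876) and tenocyte-like cells (1686 CPM, 1596 to 1779), whose intervals overlapped, and in dKO it was highest in tenocyte-like cells (1951 CPM, 1836 to 2071). MO/MP-like cells (1477 and 1138 CPM) and dendritic cell-like cells (1579 and 1512 CPM) stood well above FAP-like cells (489 and 355 CPM) in both libraries. EC-like cells had 58.9 CPM (50.1 to 68.9) in Ctrl, compared with 65.5 CPM (49.7 to 84.7) in dKO. Within the EC-like class S100a4 was concentrated in the cluster led by Gkn3, which also holds the arterial genes Gja5 and Bmx, at 281 CPM (224 to 347) and 250 CPM (182 to 336). The Selp-led venous cluster had 12.4 CPM (5.96 to 22.9) and 8.42 CPM (1.74 to 24.6), and the Car4-led capillary cluster 40.04 and 31.1 CPM. After each cell was thinned to 2000 UMIs, 69.3% of Ctrl and 59.6% of dKO MO/MP-like cells carried an S100a4 UMI, against 25.8% and 23.5% of FAP-like cells and 10.8% and 6.94% of EC-like cells. Unthinned, these shares were 78.5% and 73.0% in MO/MP-like cells, at medians of 7757 and 6830.5 UMIs, and 52.9% and 51.5% in FAP-like cells, at medians of 11725 and 11809 UMIs. Thinning left out 148 and 113 MO/MP-like cells and 65 and 59 FAP-like cells as too shallow.

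S100a16 was low in all leukocyte classes, and S100a13 was spread over more classes. S100a16 stood at 410 CPM (400 to 420) in Ctrl, compared with 402 CPM (392 to 412) in dKO FAP-like cells and at 311 and 364 CPM in EC-like cells, and MuSC-like cells had 186 and 122 CPM. In the leukocyte classes it ran from 0 to 8.81 CPM, and B cell-like cells had 0 UMIs in both libraries, which allows up to 8.39 CPM in Ctrl and 11.603 CPM in dKO (3 counts per library). Thinned to 2000 UMIs, 44.5% of Ctrl FAP-like cells carried an S100a16 UMI (41.5% to 47.5%) and 0.865% of Ctrl MO/MP-like cells did (0.432% to 1.54%). The 3 EC-like clusters ran from 302 to 380 CPM in Ctrl. S100a13, which helps to export the leaderless proteins Fgf1 and Il1a, was high in FAP-like (343 and 324 CPM) and EC-like cells (361 and 307 CPM). Unlike S100a16, it was also measured in MO/MP-like cells (199 and 173 CPM) and T cell-like cells (169 and 241 CPM). In dKO no neighbours in its order of classes had separate intervals. Its lowest level in the stromal and muscle classes was in MuSC-like cells, at 87.9 CPM (76.7 to 100) and 52.1 CPM (37.5 to 70.4). Within FAP-like cells both genes differed by cluster: the Efhd1-led cluster, which has Pi16 and Dpp4 among its leading genes, had 557 CPM of S100a13 in Ctrl and 480 CPM in dKO, against 289 and 287 CPM in the C7-led cluster.

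S100a1, which binds the ryanodine receptor in striated muscle, was low in MuSC-like cells (17.4 and 22.3 CPM). Its highest levels among the 12 classes were in tenocyte-like cells (115 CPM, 92.7 to 141, and 119 CPM, 92.3 to 152) and MO/MP-like cells (102 CPM, 96.5 to 108, and 85.6 CPM, 79.6 to 92.0). Myocyte-like cells formed no class in the main clustering. With no doublets removed they did, with 29 Ctrl and 14 dKO cells, and there S100a1 stood at 241 CPM (181 to 315) and 431 CPM (267 to 659). S100b was rare, with 167 UMIs in all Ctrl and 146 in all dKO cells. Its level was highest in the few Schwann cell-like cells, at 290 CPM (133 to 551; 9 UMIs in 10 cells) and 333 CPM (190 to 540; 16 UMIs in 12 cells). FAP-like cells held 118 and 116 of the UMIs at 7.61 and 7.44 CPM, tenocyte-like cells had 15.2 and 9.04 CPM, and dendritic cell-like, cycling MO/MP-like and neutrophil-like cells had 0 UMIs in both libraries. Ctrl cells of the unnamed cluster, led by Lypd2, Sfrp5 and Lgals7, also had 12 UMIs (98.0 CPM), and its dKO cells had 1 UMI.

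The levels by cluster show that S100a4 was uneven within each of the 3 largest classes and that S100a6 was higher in all 5 FAP-like clusters than in any MO/MP-like or EC-like cluster.

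**Figure D2:**
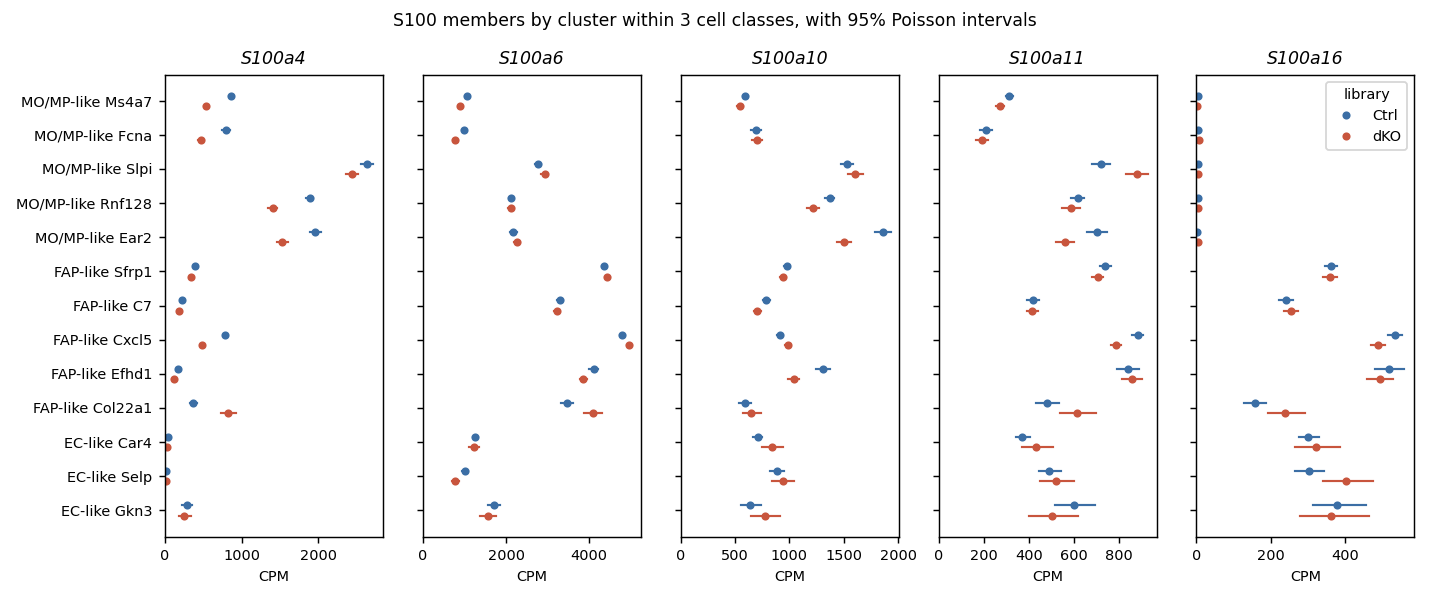
Level of S100a4, S100a6, S100a10, S100a11 and S100a16 (CPM, linear axes that differ between panels) in the clusters that make up the MO/MP-like, FAP-like and EC-like classes, with 1 point per library and exact Poisson 95% intervals as bars. S100a4 runs from 8.42 CPM in dKO cells of the Selp-led EC-like cluster to 2635 CPM in Ctrl cells of the Slpi-led MO/MP-like cluster.

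The other 7 S100 symbols were scarce. Over all kept cells, S100a14 had 37 UMIs in each library, S100a5 had 46 in Ctrl and 27 in dKO, S100a3 had 30 and 34, S100a7a had 17 and 7, and S100a2, S100g and S100z had 1 to 6. Of the S100a14 UMIs, 26 in Ctrl and 17 in dKO lay in the unnamed cluster (212 and 208 CPM), in 2 cells and 1 cell. S100a5, a neighbour of S100a4 and S100a6, had 29 of its Ctrl and 9 of its dKO UMIs in tenocyte-like cells (36.7 and 16.3 CPM).

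S100a8 and S100a9 differed most between the libraries. Over all kept cells S100a8 stood at 1122 CPM in Ctrl and 148 CPM in dKO, a log2 ratio of -2.92, and S100a9 stood at 1483 and 198 CPM, a log2 ratio of -2.91. Over the same cells the other 8 genes had log2 ratios from -0.40 (S100a4) to 0.23 (S100b). Cells removed as doublets are not counted in these ratios. In Ctrl, 9 removed neutrophil-like cells held 10428 UMIs of S100a8 and S100a9, beside 106450 in kept cells. In dKO, 2 removed cycling MO/MP-like cells held 6991, beside 10534 in kept cells. In neutrophil-like cells S100a8 was at 84557 CPM (83583 to 85539) in Ctrl, compared with 42926 CPM (41602 to 44281) in dKO, and S100a9 was at 115325 CPM (114188 to 116472) and 59934 CPM (58367 to 61532). Their log2 ratios there were -0.98 (-1.03 to -0.93) and -0.94 (-0.99 to -0.90), so that both stopped short of 2-fold. A single dKO cell held 18.9% of the S100a8 UMIs and 16.9% of the S100a9 UMIs, and without the cell with most UMIs in each library the ratios were -1.17 and -1.09, past 2-fold. The median gene of neutrophil-like cells stood 0.15 higher in dKO on the log2 scale, and relative to it the ratios were -1.13 and -1.10. The cells also differed in depth, with a median of 2367 UMIs in Ctrl and 1663.5 in dKO, and its part in the ratios was not tested.

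Other neutrophil genes were set beside the pair in this class. UMIs of S100a9 per UMI of S100a8 were 1.36 (1.34 to 1.38) in Ctrl and 1.40 (1.34 to 1.45) in dKO neutrophil-like cells. UMIs of S100a8 per UMI of Retnlg, which encodes a resistin-like protein of mature neutrophils, were 4.89 (4.75 to 5.03) and 4.75 (4.41 to 5.12). Retnlg itself stood at 17299 and 9039 CPM, and Camp, which encodes a cathelicidin, at 18195 and 8898 CPM. In dKO, Camp was found in 5 of the 36 cells with 42.2% of its UMIs in 1 of them, and 28.7% of the Retnlg UMIs were in 1 cell. Lcn2, the iron-sequestering lipocalin, differed less, with 9784 and 7181 CPM. Of the 8 neutrophil genes set beside the pair, 7 were lower in dKO neutrophil-like cells and Stfa2l1 was higher (238 and 313 CPM). All 8 are also among the markers from which the class was named. The 97 Ctrl cells had a median of 319 UMIs of S100a8 and S100a9 together and the 36 dKO cells a median of 83.5. A total of 69 of the Ctrl cells and 15 of the dKO cells had at least 100.

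Few cells held nearly all of the pair. In Ctrl, 83 of 4010 kept cells (2.07%, 1.65% to 2.56%) had at least 100 UMIs of S100a8 and S100a9 together, and they held 97.0% of the pair's UMIs. In dKO, 18 of 3079 cells (0.585%, 0.347% to 0.922%) did and held 88.6%. Neutrophil-like cells held 62.8% of S100a8 and 64.8% of S100a9 UMIs in Ctrl and 88.1% and 92.2% in dKO. With no doublets removed, the dKO shares were 54.4% and 52.4%. The rest of the Ctrl UMIs lay mostly in cycling MO/MP-like cells, with 34.2% of S100a8 and 32.5% of S100a9.

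**Figure D3:**
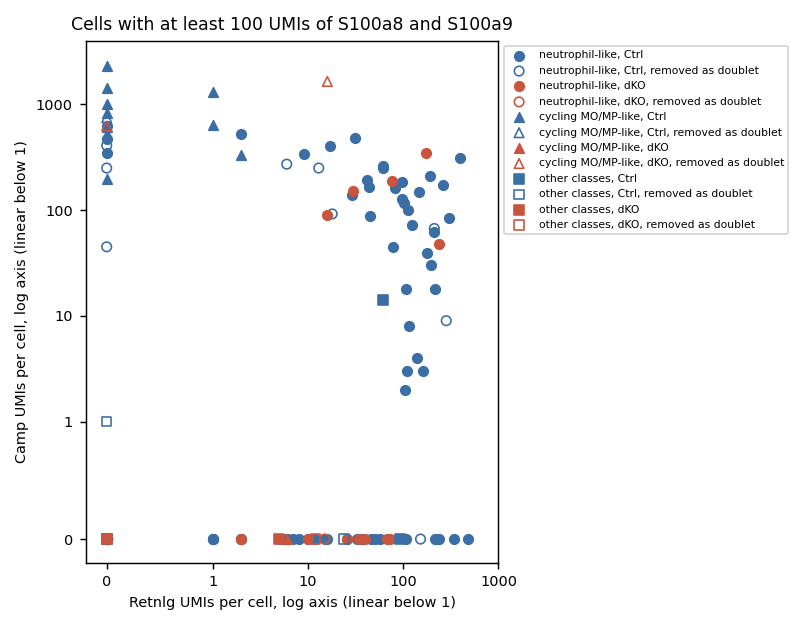
Each point is a cell with at least 100 UMIs of S100a8 and S100a9 together, by its UMIs of Retnlg (horizontal) and of Camp (vertical), both on log axes that are linear below 1, with symbols for the class, colours for the library and open symbols for 13 Ctrl and 4 dKO cells removed as doublets. The 10 Ctrl cycling MO/MP-like cells sit at the upper left, with 196 to 2321 UMIs of Camp and at most 2 of Retnlg, whereas the 69 Ctrl neutrophil-like cells have a median of 44 UMIs of Retnlg and 2 of Camp.

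That share came from 10 of the 108 Ctrl cycling MO/MP-like cells. These 10 cells carried 628 to 7135 UMIs of the pair each and 35099 in all, and the other 98 carried 258. The same 10 cells held 9206 UMIs of Camp, 5679 of Ngp, 2053 of Lcn2 and 770 of Ltf, which encode granule proteins of maturing neutrophils. They also held 313 UMIs of Elane and 332 of Prtn3, the serine proteases of early granulocytes, but 4 of Retnlg. The MO/MP markers without Chil3 and Ly6c2 summed to 164 CPM in the 10 cells and 8090 CPM in the other 98. Cell cycle genes summed to 4814 and 3839 CPM. The data therefore go against the class name for these 10 cells, which carried Camp and Ngp in place of most of the macrophage markers. The dKO cycling MO/MP-like class kept 1 cell with at least 100 UMIs (209, with 10952 CPM of the macrophage markers), and 2 more with 6991 UMIs in all had been removed for their doublet score. With all 108 and 44 cells, S100a8 stood at 8323 and 134 CPM in this class and S100a9 at 10439 and 160 CPM, log2 ratios of -5.96 and -6.02. Without the cells of at least 100 UMIs, a limit chosen after seeing the data, the S100a9 ratio was -3.93, from 75 and 2 UMIs, and S100a8 had 183 and 0 UMIs. Most of these Ctrl UMIs lay in few cells, as the 13 Ctrl cells with at least 10 UMIs of the pair held 35284 of its 35357 in the class. With no doublets removed, the ratios were -1.35 and -0.99.

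Outside these cells the pair was low. FAP-like cells, a stromal class taken here as one that should lack calprotectin, had 13.03 CPM of S100a8 (11.3 to 14.96) in Ctrl, compared with 1.48 CPM (0.935 to 2.21) in dKO. For S100a9 they had 16.5 CPM (14.6 to 18.7) and 2.05 CPM (1.40 to 2.90). No FAP-like cell carried more than 4 UMIs of the pair in Ctrl or 2 in dKO. As a share of the library's own level over all kept cells, the S100a8 level of FAP-like cells was 1.16% (1.01% to 1.33%) in Ctrl and 0.996% (0.631% to 1.49%) in dKO, and the S100a9 level was 1.11% and 1.04%. The log2 ratios in FAP-like cells, -3.14 (-3.83 to -2.52) and -3.01 (-3.59 to -2.47), had intervals that include the ratios over all kept cells. Cells removed as doublets are missing from both. With no integration of the libraries before clustering, the FAP-like ratios were -0.03 and -0.84, from 195 and 202 UMIs of S100a8 and 238 and 141 of S100a9. There 1 dKO cell that was unnamed with integration held 286 UMIs of the pair. EC-like cells had 16.04 and 2.26 CPM of S100a8. Shares of cells with an S100a8 UMI after thinning were 2.83% and 0.359% in FAP-like and 5.26% and 0.694% in EC-like cells. The part of free RNA in these levels and shares was not tested.

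**Figure D4:**
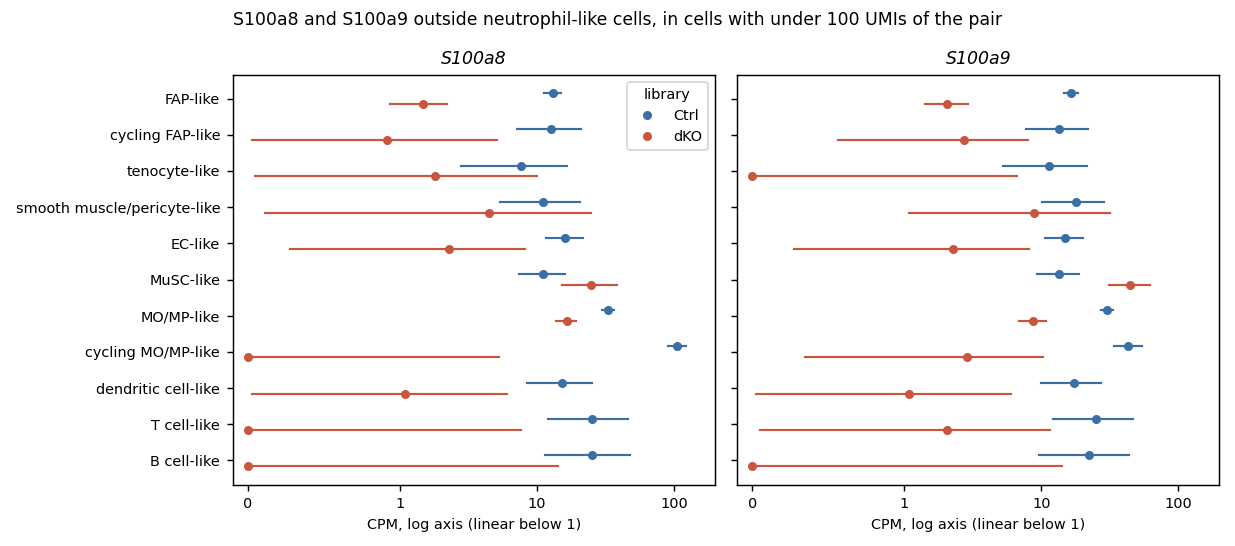
Level of S100a8 and S100a9 (CPM, log axis that is linear below 1, exact Poisson 95% intervals) in each class but neutrophil-like cells, after cells with at least 100 UMIs of the pair are left out, in Ctrl and dKO. FAP-like cells stand at 13.03 and 16.5 CPM in Ctrl and at 1.48 and 2.05 CPM in dKO, and MO/MP-like cells stand above them in both libraries.

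As a class, MO/MP-like cells lay above FAP-like cells in both libraries. Without the 3 Ctrl cells and 1 dKO cell of at least 100 UMIs, they had 33.1 CPM of S100a8 (30.02 to 36.3) in Ctrl, compared with 16.5 CPM (13.9 to 19.4) in dKO, and 30.2 CPM of S100a9 (27.3 to 33.4) and 8.69 CPM (6.84 to 10.9). The 3 Ctrl cells and 1 dKO cell lay in the Slpi-led cluster, which with all of its cells had 329 and 102 CPM of S100a8 and 462 and 90.5 CPM of S100a9. Without them it had 51.4 CPM of S100a8 (41.6 to 62.8) in Ctrl, compared with 51.8 CPM (40.6 to 65.1) in dKO, and 43.9 and 22.7 CPM of S100a9. The other 4 MO/MP-like clusters, which held none of these cells, had 18.1 to 34.2 CPM of S100a8 in Ctrl and 3.40 to 12.5 CPM in dKO. Their S100a9 ran from 20.3 to 48.7 CPM in Ctrl and from 0.849 to 10.2 CPM in dKO. In dKO the S100a9 intervals of the Fcna-led, Rnf128-led and Ear2-led clusters overlapped that of FAP-like cells (1.40 to 2.90). With all MO/MP-like cells the log2 ratios were -1.58 (-1.80 to -1.36) for S100a8 and -2.20 (-2.44 to -1.97) for S100a9, and without the cells of at least 100 UMIs they were -1.01 and -1.80. In Ctrl, 7 MO/MP-like cells with at least 10 UMIs of the pair held 1491 of its 2152 UMIs in the class. In dKO, 4 such cells held 300 of 384. The part of free RNA in the ratios of this class was not tested.

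In dendritic cell-like and MuSC-like cells a single cell held most UMIs of the pair in 1 library. In dendritic cell-like cells 71 and 1 UMIs of S100a8 gave a log2 ratio of -6.05 (-11.37 to -3.52) and 80 and 1 UMIs of S100a9 gave -6.22 (-11.54 to -3.70), and a single Ctrl cell held 119 of the 151 UMIs of the pair. Without it the ratios were -3.82, from 15 and 1 UMIs, and -4.00, from 17 and 1, in the same direction but with too few UMIs for a call. With no doublets removed the ratios in these cells were 1.48 and 0.54, and with cells of at least 200 genes they were 1.59 and 0.59. In MuSC-like cells S100a9 was higher in dKO, at 13.5 CPM in Ctrl and 44.7 CPM in dKO (log2 ratio 1.73, 1.01 to 2.45), and a single dKO cell held 52 of the 56 UMIs of the pair. Without the cell with most S100a9 UMIs in each library the MuSC-like ratio was -2.31, from 31 and 2 UMIs.

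S100a4 was lower in dKO in MO/MP-like and FAP-like cells, and close in EC-like cells (58.9 and 65.5 CPM, intervals overlapping). S100a13 had log2 ratios from -0.23 in EC-like to -0.08 in FAP-like cells over these 3 classes. In FAP-like cells the median gene stood at -0.06, and the S100a13 ratios of the FAP-like clusters ran from -0.22 to 0.05. In MO/MP-like cells, Ctrl had 19306 UMIs of S100a4 (1477 CPM, 1457 to 1498) and dKO had 9825 (1138 CPM, 1116 to 1161), which gave a log2 ratio of -0.38 (-0.41 to -0.34). S100a4 was lower in dKO in each of the 5 MO/MP-like clusters. The difference was largest in the Fcna-led cluster, which expresses genes of resident macrophages such as Cd163 and Lyve1 (793 and 465 CPM, -0.77), and in the Ms4a7-led cluster (865 and 532 CPM, -0.70). It was smallest in the Slpi-led cluster (2635 and 2439 CPM, -0.11, -0.17 to -0.05). In FAP-like cells 489 CPM (478 to 500) and 355 CPM (346 to 364) gave -0.46 (-0.51 to -0.41). There 4 of 5 clusters were lower in dKO, led by the Cxcl5-led cluster at 787 and 485 CPM (-0.70), and the small Col22a1-led cluster was higher, at 365 CPM (66 cells) and 823 CPM (33 cells). All 10 FAP markers and all 9 tenocyte markers were enriched in the Col22a1-led cluster. None of the MO/MP-like or FAP-like differences of S100a4 reached 2-fold over the class.

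In T cell-like cells, 5 of the 10 genes had enough UMIs, and all 5 were higher in dKO: S100a4 at 672 and 1258 CPM (log2 ratio 0.91, 0.70 to 1.12), S100a6 at 987 and 1611 CPM (0.71, 0.53 to 0.88), S100a11 at 303 and 470 CPM (0.63, 0.31 to 0.97), S100a13 at 169 and 241 CPM (0.51, 0.07 to 0.97) and S100a10 at 1002 and 1305 CPM (0.38, 0.20 to 0.57). Their median was 0.63, against 0.04 over the 2476 genes of that class. None passed 2-fold. In B cell-like cells S100a6 stood at 179 and 50.3 CPM (64 and 13 UMIs, log2 ratio -1.83, -2.82 to -0.96). A single Ctrl cell held 44 of the 64 UMIs, and without the cell with most S100a6 UMIs in each library the ratio was -0.40, from 20 and 11 UMIs. The share of B cell-like cells with an S100a6 UMI was 14.9% in Ctrl and 13.8% in dKO. S100a4 stood at 81.1 and 19.3 CPM from 29 and 5 UMIs, too few for a call, and 20 of the 29 were in 1 cell. S100a10 was at 182 and 217 CPM in these cells (log2 ratio 0.25, -0.29 to 0.79) and S100a11 at 83.9 and 88.95 CPM (0.08, -0.77 to 0.92), so that neither interval excluded 0.

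All 7 genes that could be compared in cycling FAP-like cells were lower in dKO. S100a1 went from 53.3 to 15.5 CPM (63 and 17 UMIs, log2 ratio -1.78, -2.65 to -0.99) and S100a13 from 383 to 172 CPM (-1.16, -1.41 to -0.91), both past 2-fold. The other 5 had ratios from -0.76 (S100a4) to -0.46 (S100a10). The median of the 7 was -0.70, against -0.02 over the 5512 genes of the class. Each group held 36 or 30 cells here. With no doublets removed (52 and 50 cells) S100a1 was at -0.96 and S100a13 at -0.49, and the other 5 ran from -0.36 to -0.20, so that no call was left. At resolution 0.4 the class was a wider set of 124 and 162 cells led by Cxcl5, with ratios of -0.91 and -0.65. No such class formed with S100 genes in the clustering, with no integration or with cells of at least 200 genes. In smooth muscle/pericyte-like cells (114 and 35 cells) S100a13 stood at 176 and 75.3 CPM (-1.22, -2.04 to -0.50) and S100a16 at 75.6 and 35.4 CPM (-1.09, -2.36 to -0.03), both past 2-fold. S100a10 stood at 240.3 and 124 CPM (216 and 28 UMIs, -0.95, -1.58 to -0.38), while S100a6 (1471 and 1994 CPM) and S100a11 (436 and 660 CPM) were higher in dKO.

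In MuSC-like cells, in which the Cre acts, most S100 genes differed by less than 2-fold. S100a6 was 2799 and 3110 CPM (log2 ratio 0.15, 0.09 to 0.22), S100a4 was 1055 and 903 CPM (-0.22, -0.34 to -0.11), and S100a11 was 543 and 500 CPM (-0.12, -0.28 to 0.04). S100a13 at 87.9 and 52.1 CPM (-0.75, -1.27 to -0.27) and S100a16 at 186 and 122 CPM (-0.62, -0.95 to -0.30) were lower in dKO without reaching 2-fold. The dKO values come from 33 cells.

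**Figure D5:**
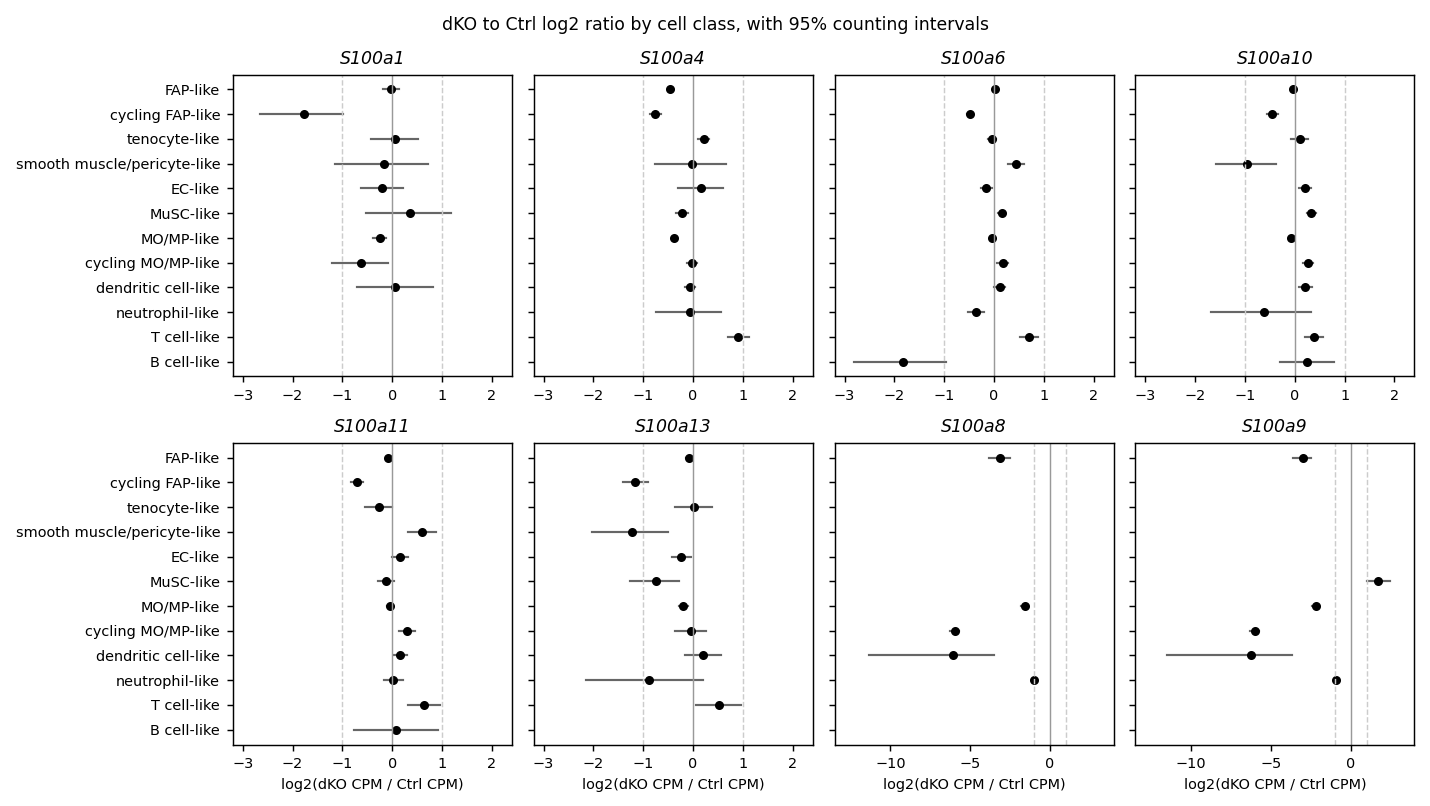
Log2 ratio of dKO to Ctrl for 8 S100 genes in each class where the gene had at least 50 UMIs, on a wider axis for S100a8 and S100a9, with exact 95% counting intervals as bars and dashed lines at 2-fold either way. S100a8 and S100a9 lie far below the line in dendritic cell-like, cycling MO/MP-like, FAP-like and MO/MP-like cells, and most other points lie between the lines.

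The calls in each class are set here beside the share of all genes past 2-fold. In MO/MP-like cells 2 of 9 genes with enough UMIs were past 2-fold (S100a8 and S100a9, both lower in dKO), where 2.48% of all genes were. In FAP-like cells it was 2 of 10 (the same pair, lower), against 1.98%. In dendritic cell-like cells it was 2 of 8 (the same pair, lower), against 2.61%, and in cycling MO/MP-like cells 2 of 8 (the same pair, lower), against 6.08%. In MuSC-like cells it was 1 of 8 (S100a9, higher), against 8.57%. In B cell-like cells it was 1 of 3 (S100a6, lower), against 2.39%. In smooth muscle/pericyte-like cells it was 2 of 7 (S100a13 and S100a16, lower), against 10.9%, and in cycling FAP-like cells 2 of 7 (S100a1 and S100a13, lower), against 4.92%. None of the 7 genes was past 2-fold in EC-like (3.92% of all genes), tenocyte-like (2.67%) or neutrophil-like cells (10.1%), and none of the 5 was in T cell-like cells (2.06%). Some of these calls were lost under other choices, among them both calls in cycling FAP-like cells with no doublets removed. The calls of the pair in FAP-like cells were lost with no integration (-0.03 and -0.84), and the part of free RNA in its levels there was not tested. The calls of the pair in dendritic cell-like cells had too few UMIs without 1 Ctrl cell, and their ratios changed sign with no doublets removed. Those of S100a9 in MuSC-like and of S100a6 in B cell-like cells were lost without the cell with most UMIs in each library. In cycling MO/MP-like cells the pair stayed past 2-fold without the cells of at least 100 UMIs, from 183 and 0 UMIs of S100a8 and 75 and 2 of S100a9. Few Ctrl cells carried these UMIs, and the S100a9 ratio was -0.99 with no doublets removed.

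The known partners and receptors of S100 proteins, a list of 16 genes, were read by the same rule. Anxa1, the partner of S100a11, was the only one past 2-fold in EC-like cells, of 12 with enough UMIs, and went from 46.3 to 104 CPM (log2 ratio 1.17, 0.76 to 1.57), against 3.92% of all genes. A single dKO cell held 24 of its 92 UMIs. In neutrophil-like cells 2 of 7 were past it, against 10.1% of all genes, and both were higher in dKO: Tlr4, a receptor for S100a8 and S100a9, at 79.3 and 259 CPM (27 and 24 UMIs), and Cd36, a fatty acid receptor, at 94.0 and 248 CPM (32 and 23 UMIs). A single dKO cell held 22 of these 23 UMIs of Cd36, and 10 of the 24 UMIs of Tlr4 also came from 1 cell. Cd36 was lower in FAP-like cells (7.61 and 2.18 CPM, 1 of 13 against 1.98% of all genes) and in smooth muscle/pericyte-like cells (1055 and 523 CPM, 1 of 10 against 10.9%). None was past 2-fold in the other 8 classes. In MO/MP-like cells Tlr4 stood at 43.6 and 47.3 CPM, Anxa2 at 998 and 836 CPM (-0.26) and Anxa1 at 552 and 363 CPM (-0.60).

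The pattern of each gene over the 24 points given by 12 classes and 2 libraries was set against 9378 other genes as Pearson's r of log2(CPM + 10). The points share libraries and differ in depth, so these values are a description. S100a8 and S100a9 were nearly alike (r = 0.999), and the genes nearest to both were Ngp, Ltf and Camp (r = 0.96). S100a16 was nearest to Sulf1 (r = 0.97), Ppic and Grb10, S100a4 to Emp3 (r = 0.93), Rbpj and Slc9a9, and S100b to Arhgap20 (r = 0.93), Spon2 and Glt8d2. Among the S100 genes themselves the next closest pairs were S100a6 with S100a11 (r = 0.78) and S100a4 with S100a10 (r = 0.69). S100a1 and S100a13, whose promoter windows overlap, had r = 0.49, and the neighbours S100a4 and S100a6 had r = 0.56.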

How the data were processed

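Hind limb muscle cells of 1 Ctrl and 1 dKO library, each pooled from several mice, were measured by 10x Chromium single cell RNA-seq. The deposited matrices hold raw UMI counts per gene and cell. Their headers name Cell Ranger 3.0.2, whereas the submitters' processing notes name Cell Ranger 7.0.0, Seurat 4.3.0, Cufflinks and mm10. The libraries held 4527 and 3483 cells with medians of 7697 and 7615 UMIs. The files contain 0 mitochondrially encoded symbols, so a filter on these could not act.

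Cells with at least 500 genes (4335 and 3329, the numbers that the study gives for the time after doublet removal) were scored with Scrublet in scanpy 1.11.5, as a mean of 10 runs with 30 components. Its own threshold called too few cells to be used, so the top 7.5% per library were removed as doublets, as in the study's methods. Counts were log-normalised, integrated and clustered in Seurat 5.3.0 (R 4.3.3) on 1994 variable genes without S100 genes, with 40 components and resolution 0.8, which gave 25 clusters. The study's own cell type names are not used here. Clusters were named from 18 marker lists, of which 6 markers were not in the files, where at least 3 markers were enriched 2-fold. UMIs were summed per class and library. With 1 library per group no p-value was computed, and intervals (95%, scipy 1.17.1) cover counting error only. The limit given for a count of 0 is 3 counts per library. Cells were thinned to 2000 UMIs for shares. The interval and call steps were tested on simulated data.

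The members and lists were chosen with earlier results of these data known. The rule for named genes took the 10 S100 genes in classes of at least 20 cells per library, of which the heatmap shows every value and the text the ones described, the other S100 symbols by counts, 16 partners by counts with values for those past 2-fold and for Anxa2, Anxa1 and Tlr4, 8 neutrophil genes, Yy1, and the 3 genes nearest to a member. The smaller groups, the 10 Ctrl cells and the granulocyte genes Elane and Prtn3 were named after their values were seen. The alternatives changed the doublet step, the gene minimum, the integration, the resolution, the S100 genes in clustering, the scaling, the averaging and the cells left out. Leaving out cells with at least 100 UMIs of S100a8 and S100a9 was chosen after seeing the data. Promoter sequences are from RefSeq, in which no window was found for S100a10, and protein sequences were not used here.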

Additional observations from a re-analysis of the deposited data

Results flagged for a closer look

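For 4 genes the ratio was at least 1.5-fold up in one class and at least 1.5-fold down in another, each with 50 or more UMIs and an interval without 0, and the difference between the classes was not tested in any case. S100a4 had a log2 ratio of dKO to Ctrl of 0.91 in T cell-like cells and -0.76 in cycling FAP-like cells. S100a11 had 0.63 and -0.70 in the same classes. The cycling FAP-like ratios were -0.20 for S100a4 and -0.36 for S100a11 when no doublets were removed. S100a6 had 0.71 in T cell-like cells and -1.83 in B cell-like cells, the latter from 64 and 13 UMIs, of which 44 were in 1 Ctrl cell, and at -0.40 without the cell with most UMIs in each library. S100a9 had 1.73 in MuSC-like cells and -6.22 in dendritic cell-like cells. Without the cell with most UMIs in each library the MuSC-like ratio turned to -2.31, and without the 1 Ctrl cell of at least 100 UMIs of S100a8 and S100a9 the dendritic cell-like ratio was -4.00.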

How the results depend on the processing

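Each value below is a log2 ratio of dKO to Ctrl unless it is a share, and the cause of each shift was not tested. Of 680 ratios recomputed for 86 results, 621 had the sign of the reported value and 59 had the other, of which 51 had a reported size under 0.3. With no doublets removed, the ratio was -0.56 for S100a4 in FAP-like cells, -0.83 for S100a8 and -0.77 for S100a9 in neutrophil-like cells, and the ratios in dendritic cell-like cells turned to 1.48 for S100a8 and 0.54 for S100a9. The share of UMIs in neutrophil-like cells then became 64.6% (S100a8) and 65.9% (S100a9) in Ctrl and 54.4% and 52.4% in dKO. With cells of at least 200 genes the Ctrl shares were 69.7% and 71.6%, S100a4 stood at -0.42 in MO/MP-like and S100a6 at -0.0080 in FAP-like cells, and the dendritic cell-like ratios turned to 1.59 and 0.59. With no integration, FAP-like cells had -0.52 (S100a4), -0.0002 (S100a6), -0.0339 (S100a8) and -0.84 (S100a9), and neutrophil-like cells -0.85 (S100a8) and -0.82 (S100a9). With S100 genes among the clustering genes, MO/MP-like cells had -1.31 (S100a8) and -1.95 (S100a9) and FAP-like cells -0.54 (S100a4). At resolution 0.4, S100a6 was at -0.0212 in FAP-like cells. As a mean of each cell's own CPM, S100a4 was at -0.29 in MO/MP-like and -0.38 in FAP-like cells, S100a6 at 0.0211 in MO/MP-like and S100a8 at -1.07 in neutrophil-like cells. Scaled to the median ratio of genes, FAP-like cells had -0.41 (S100a4) and 0.0764 (S100a6) and neutrophil-like cells -1.13 (S100a8) and -1.10 (S100a9), so that both passed 2-fold. Without the cell with most UMIs in each library, S100a8 was at -1.82 in MO/MP-like and -1.17 in neutrophil-like cells and S100a9 at -2.91, -1.09 and, in MuSC-like cells, -2.31, and S100a6 in B cell-like cells at -0.40. Without cells that carry a UMI of the 8 neutrophil genes, MO/MP-like cells had -1.85 (S100a8) and -2.98 (S100a9), and S100a9 in MuSC-like cells turned to -2.35. Without cells of at least 100 UMIs of the pair, chosen after seeing the data, MO/MP-like cells had -1.01 and -1.80.

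No paired analysis was possible because each group has 1 library, and leaving out a replicate was not possible for the same reason. The ratios compare 2 libraries and not conditions. Depth over both libraries was lowest in neutrophil-like (340541 and 92602 UMIs), B cell-like (357622 and 258559) and T cell-like cells (396025 and 484922).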
